A study of Mus musculus with 18 samples.

Results

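The 8 genes described here encode enzymes and regulators of mitochondrial fatty acid oxidation. They were chosen by symbol from a table of 21859 gene rows, and each matched 1 row. All 8 passed the low-count filter, as did 15944 genes in all. Cpt1a encodes the carnitine palmitoyltransferase that commits long-chain fatty acids to the mitochondrion. Acadvl, Acadl and Acadm encode the acyl-CoA dehydrogenases of very long, long and medium chains, which catalyse the first step of each round of beta-oxidation. Hadha and Hadhb encode the alpha and beta subunits of the mitochondrial trifunctional protein, which carries out the remaining steps on long chains. Ppara encodes a nuclear receptor that is activated by fatty acids and induces many of these enzymes, and Ppargc1a encodes PGC-1alpha, a coactivator of mitochondrial genes. None of the 8 makes ketone bodies, so genes of ketone body metabolism were taken from a separate list, described further on with other genes of the pathway.

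The retinal pigment epithelium (RPE) is the monolayer between the photoreceptors and the choroid. It engulfs the lipid-rich tips of photoreceptor outer segments every day, oxidises the fatty acids in its mitochondria, and can turn the resulting acetyl-CoA into beta-hydroxybutyrate, a ketone body that it passes to the neural retina through the monocarboxylate transporter MCT1. The rate of beta-oxidation is set largely at the carnitine step, where malonyl-CoA inhibits the enzyme encoded by Cpt1a, and over longer times by PPARalpha and PGC-1alpha.

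RNA from mouse RPE was sequenced in 18 libraries. They were 7 from young mice (Young), 4 from old mice with no treatment (Old), 3 from old mice given AAV2-tTA (Old-Control) and 4 from old mice given AAV2-tTA;TRE-OSK (Old-OSK). The vector with tTA alone carries a tetracycline-controlled activator, and TRE-OSK places the reprogramming factors Oct4, Sox2 and Klf4 under the promoter that tTA drives. Strain, sex, ages, the promoter that drives tTA, the time after injection and whether libraries came from separate mice were not given in the sources used here, so the p-values measure the spread between these libraries, which may be technical. Totals per library ranged from 18104828 to 32348136 counts. The smallest count of any of the 8 genes in any library was 86, for Ppara, and 772 for the other 7.

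Levels are given in CPM, the count scaled to a common library size by the trimmed mean of M-values (TMM), and differences as log2 fold changes with standard errors (SE) from edgeR's quasi-likelihood test. A gene was called when its p, adjusted by Benjamini and Hochberg over the 15944 genes, was under 0.05. Of the vector genes, Pou5f1, which encodes Oct4, was at 50.1 to 97.4 CPM in Old-OSK and at 3.75 CPM or less in every other library, and Sox2 at 70.0 to 115 CPM and at 15.9 CPM or less. Klf4 overlapped, at 155 to 432 CPM in Old-OSK and up to 216 CPM in Old. The 10 RPE markers (Rpe65, Best1, Rlbp1, Ttr, Rgr, Lrat, Rdh5, Mitf, Tyr and Otx2) were present in all groups, with a summed level of 39523 to 65422 CPM in Young, 26973 to 47230 in Old, 20298 to 62410 in Old-Control and 15302 to 29778 in Old-OSK. On the first principal component, Old replicate 4 and Old-Control replicate 2 lay among the Old-OSK libraries, and they also had the lowest RPE marker sums of their groups, 26973 and 20298 CPM. The names of 6 libraries carry a letter M that the labels do not explain (3 Young, 2 Old-Control, 1 Old-OSK and no Old). For the main fold changes that rest on these libraries, fits with and without them are given. Correlations within groups are given with them only.

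The stretches upstream of the 3 dehydrogenase genes are shown because these genes encode the same reaction on different chain lengths but did not move in the same direction in the data. Each is the 250 bases before the RefSeq start on GRCm38.p6, on the minus strand, written 5′ to 3′: chr3:153944644-153944893 for Acadm, chr1:66863310-66863559 for Acadl and chr11:70015429-70015678 for Acadvl. None of the 250 bases lies in an annotated exon. Capitals mark AGGTCA on either strand, the hexamer that PPARs and related nuclear receptors bind.
Acadm: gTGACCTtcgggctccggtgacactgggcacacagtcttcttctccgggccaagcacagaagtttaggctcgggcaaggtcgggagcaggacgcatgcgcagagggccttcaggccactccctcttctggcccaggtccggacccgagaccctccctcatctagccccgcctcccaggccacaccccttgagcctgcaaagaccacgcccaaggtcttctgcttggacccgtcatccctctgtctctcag
Acadl: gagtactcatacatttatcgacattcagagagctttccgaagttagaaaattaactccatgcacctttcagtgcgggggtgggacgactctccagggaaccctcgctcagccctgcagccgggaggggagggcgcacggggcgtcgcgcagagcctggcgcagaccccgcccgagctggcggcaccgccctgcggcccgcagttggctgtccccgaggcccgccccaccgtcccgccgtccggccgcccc
Acadvl: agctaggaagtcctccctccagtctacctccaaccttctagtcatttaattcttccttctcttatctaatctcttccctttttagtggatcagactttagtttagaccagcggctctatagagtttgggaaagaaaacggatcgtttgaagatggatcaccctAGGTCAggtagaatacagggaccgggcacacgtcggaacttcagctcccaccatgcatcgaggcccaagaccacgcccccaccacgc
The hexamer lay on the strand opposite to the gene at position -249 of Acadm. At -87 of Acadvl it lay on the strand of the gene. Positions are counted from the start, and the hexamer was not found in the Acadl window. Across all 32851 RefSeq windows of this length, 14% held AGGTCA. A tandem repeat of that hexamer with 1 base between, the element to which PPAR and RXR bind as a pair, was in 0.0335% of windows and in none of the 8, and TCAAGGTCA, which oestrogen-related receptors bind, was in 0.387% and also in none of the 8. The windows of Acadl and Acadm were 68% and 64% G and C, and that of Acadvl 49.6%, against a median of 52.4% over all windows. Hadha and Hadhb are transcribed away from each other, from RefSeq starts 272 bases apart on chromosome 5. In GENCODE M21, on GRCm38, the whole genes span chr19:3322334-3385733 for Cpt1a (plus strand), chr3:153922357-153944632 for Acadm (minus), chr1:66830839-66863277 for Acadl (minus) and chr11:70010183-70015411 for Acadvl (minus). Hadha spans chr5:30118304-30155162 (minus), Hadhb chr5:30155248-30184593 (plus), Ppara chr15:85734983-85802819 (plus) and Ppargc1a chr5:51454250-51567726 (minus).

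In Young, the levels per kilobase of exon placed Acadl first, at 101 ± 14.1 CPM per kb (SD, n = 7). Acadvl followed at 52.3 ± 8.29 and Cpt1a at 47.1 ± 4.92 CPM per kb, and these ranges overlapped, with 41.8 to 63.6 for Acadvl and 42.1 to 54.1 for Cpt1a. Hadha was at 31.6 ± 2.35, Hadhb at 23.0 ± 2.23 and Acadm at 21.1 ± 1.72 CPM per kb, the ranges of Hadhb and Acadm overlapping. The regulators were lowest, with Ppargc1a at 11.3 ± 0.837 and Ppara at 2.20 ± 0.263 CPM per kb. Slc16a1, which encodes MCT1, stood above all 8 genes on the same scale, at 291 CPM per kb. Lengths are the union of annotated exons in GENCODE M21 and include exons that RPE may not use. For Acadvl, 42.9% of that length, 1151 bases, is shared with Dvl2 on the opposite strand. The library kit does not mark strand, so reads from the shared part cannot be told apart. The strand setting of the counting was not given either. Dvl2 was at 29.7 ± 3.99 CPM in Young and 25.1 ± 2.55 CPM in Old-OSK, and its log2 fold change between them was -0.24 (SE 0.11, edgeR adjusted p = 0.0733).

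**Figure D1:**
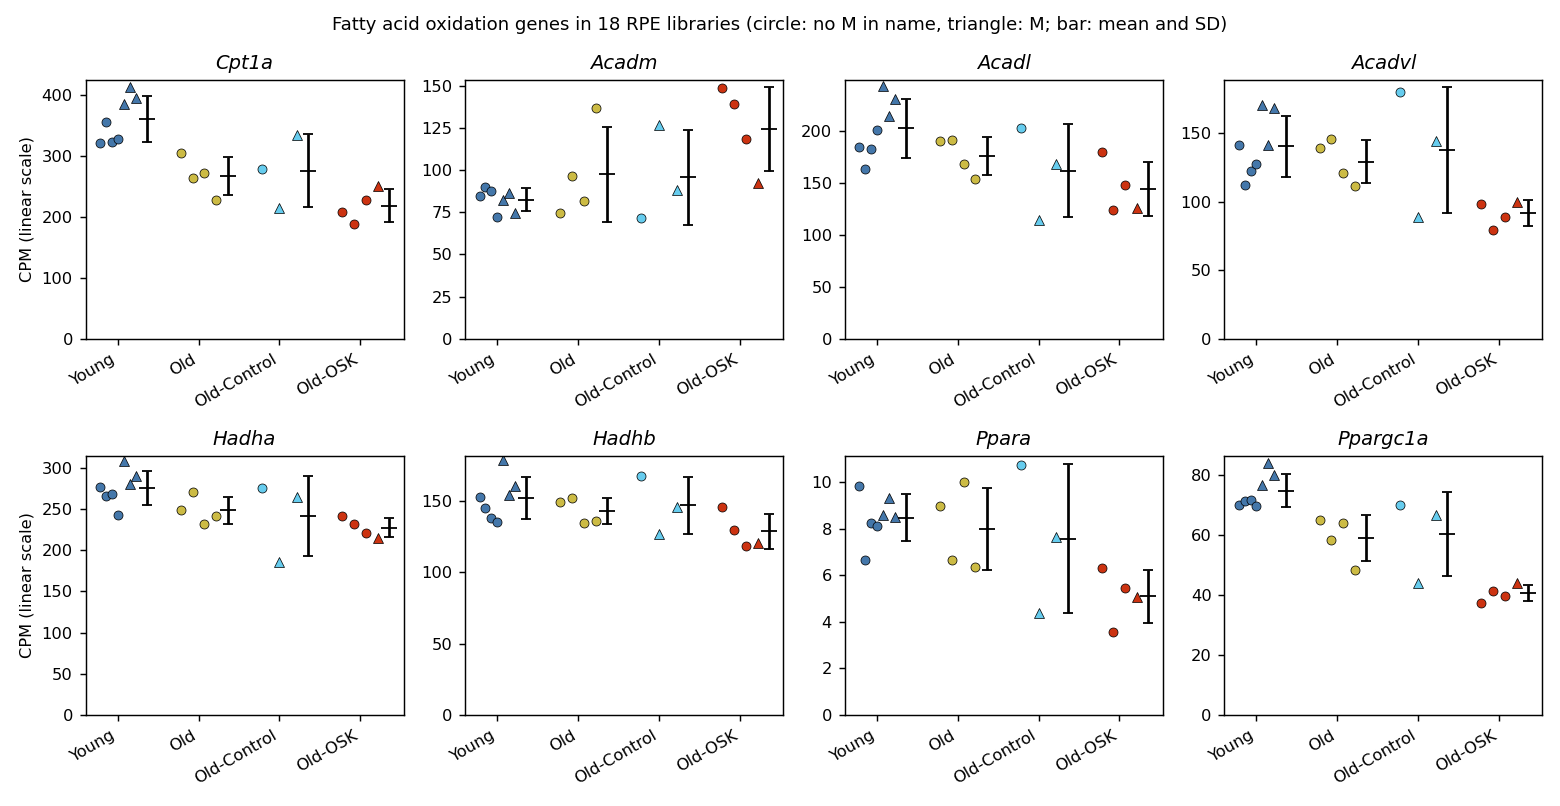
Level of the 8 genes in each of the 18 libraries, in CPM on a linear scale from 0, by group (circles, no M in the library name; triangles, M; bars, mean and SD). In the Ppargc1a panel the Old-OSK libraries sit between 37.4 and 43.9 CPM, below all others, and in the Acadm panel they sit between 92.1 and 148 CPM, above all Young libraries.

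With age, Cpt1a fell and the other 7 genes were not called. The Old libraries of Cpt1a were all below the Young ones, and Acadm had the only positive fold change of the 8. The called share was 1 of 8, lower, where 9.56% of all genes tested were called, 5.4% higher and 4.16% lower. The median log2 fold change was -0.14 over the 8 genes and -0.00 over all genes tested. An unadjusted p under 0.05 was found for 2 of the 8, against 29% of all genes.

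Cpt1a was at 322 CPM in the lowest, 356 in the median and 413 in the highest Young library, and at 305, 264, 271 and 228 CPM in Old replicates 1 to 4. The groups did not overlap. The log2 fold change was -0.43 (SE 0.12, edgeR adjusted p = 0.0398), a level 25.9% lower. This call was close to the threshold. Of 11 fits, each without 1 library of these groups, 8 lost it, the value moving between -0.50 and -0.36. The adjusted p in them lay between 0.0255 and 0.177 and was largest when Old replicate 4 was left out. It was also lost among the libraries whose names carry no M (log2 fold change -0.32, adjusted p = 0.115). Of the 10 RPE markers, 1 was called lower with age, with a median log2 fold change of -0.31. The rod markers had a median of 1.40 with none called, and of the 8 macrophage and microglia markers 6 were called higher (median 1.96), with sums of 418 to 690 CPM in Old and 449 to 656 CPM in Young. The part of these cell types in the result was not tested. With the mean log2 level of the RPE markers (the RPE marker score) as a covariate, an alternative chosen after the data were seen, Cpt1a was at -0.32 and not called (adjusted p = 0.0745). In bulk RNA, fewer RPE cells and less RNA per cell cannot be told apart.

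Ppargc1a was at 69.7, 71.6 and 84.0 CPM in the lowest, median and highest Young library, and at 65.1, 58.5, 64.0 and 48.4 CPM in the Old ones. Its groups did not overlap either, but the fold change was not called (-0.34, SE 0.11, edgeR adjusted p = 0.0627). Among all genes, 5.61% had all Old libraries below all Young ones. Of the enzymes downstream of the carnitine step, the log2 fold changes were -0.20 for Acadl (SE 0.15), -0.12 for Acadvl (SE 0.16), -0.15 for Hadha (SE 0.10), -0.09 for Hadhb (SE 0.09) and 0.24 for Acadm (SE 0.17), with edgeR adjusted p of 0.323 to 0.657. That of Ppara was -0.08 (SE 0.21, adjusted p = 0.833). Old and Young overlapped for these 6 genes. Acadm reached 137 CPM in Old replicate 4 and was at 74.5, 96.3 and 81.7 CPM in the other Old libraries, against 72.1 to 90.0 CPM in Young.

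Vector without OSK was compared with no vector in old mice. None of the 8 genes was called, and the groups overlapped for all 8, while 3.18% of all genes did not overlap. The log2 fold changes ran from -0.12 for Acadl to 0.09 for Acadvl (SE 0.18 and 0.19), with edgeR adjusted p of 0.958 to 0.993 and no unadjusted p under 0.05. No gene at all was called in this comparison (0% of 15944), and 3.74% had an unadjusted p under 0.05. DESeq2 called none of the 8 either. For Cpt1a the difference was 0.05 (SE 0.15) and for Ppargc1a 0.03 (SE 0.14). Old-Control had the largest SD of the 4 groups for all 8 genes: Acadvl was at 180.2, 88.7 and 144 CPM in its 3 libraries and Ppara at 10.7, 4.36 and 7.62 CPM, with replicate 2 lowest for both.

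**Figure D2:**
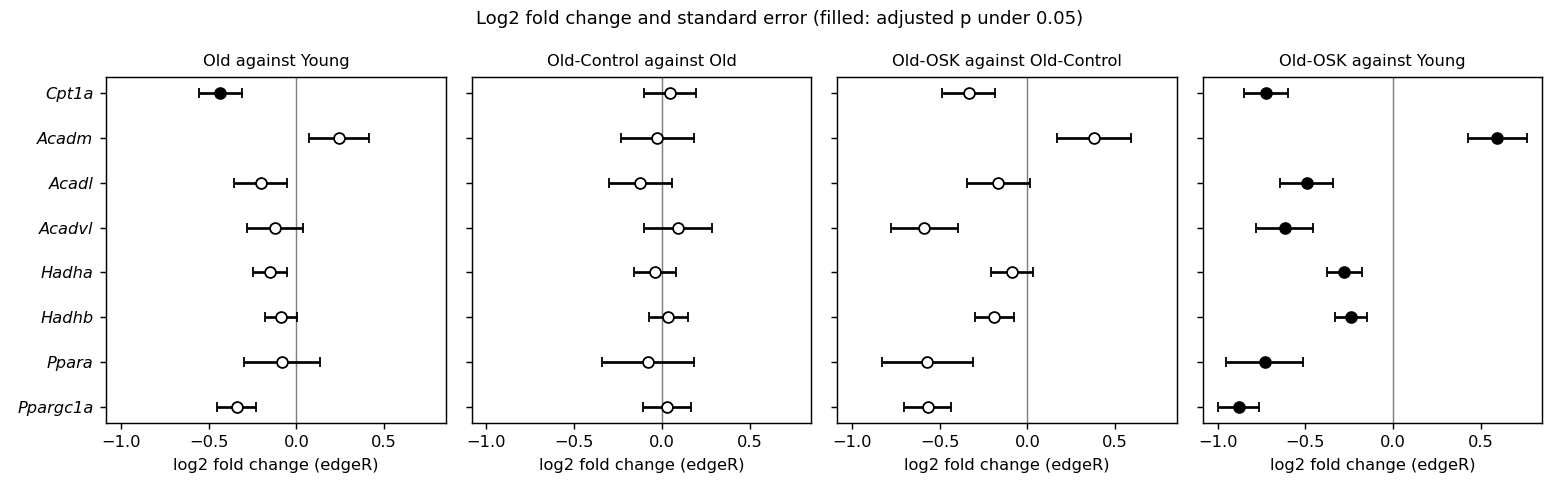
Log2 fold change with SE from edgeR for the 8 genes in 4 comparisons (filled points, adjusted p under 0.05). Filled points are Cpt1a at -0.43 for Old against Young and all 8 genes for Old-OSK against Young, where Acadm at 0.59 is the only one above 0. The comparisons share libraries, Young in the first and last, and Old-OSK in the last pair.

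OSK vector was compared with the vector without OSK in old mice. None of the 8 genes was called, where 0.728% of all genes tested were called, 0.408% higher and 0.32% lower. 7 of the 8 log2 fold changes were negative and that of Acadm was positive, with a median of -0.26 against -0.03 over all genes. An unadjusted p under 0.05 was found for 4 of the 8 (Ppargc1a, Acadvl, Cpt1a and Ppara), against 26.3% of all genes. DESeq2 called 1 of the 8, Ppargc1a (adjusted p = 0.0137), beside 11.6% of all genes that it tested.

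Ppargc1a had the lowest p of the 8. It was at 37.4, 41.4, 39.7 and 43.9 CPM in Old-OSK replicates 1 to 4 and at 69.9, 44.1 and 66.7 CPM in Old-Control replicates 1 to 3. All Old-OSK libraries were below all Old-Control ones, by a small margin from replicate 2, and 5.84% of all genes had that order. The log2 fold change was -0.57 (SE 0.14, edgeR adjusted p = 0.0588). Over 7 fits, each without 1 library, it ran from -0.78 to -0.45 and passed in 2, without Old-Control replicate 2 (adjusted p = 0.00333) and without Old-OSK replicate 4 (-0.65, adjusted p = 0.0226).

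Acadvl was at 98.2, 79.6, 88.8 and 99.96 CPM in Old-OSK and at 180.2, 88.7 and 144 CPM in Old-Control, so that replicate 2 of the controls lay inside the Old-OSK range. Its log2 fold change was -0.59 (SE 0.19, edgeR adjusted p = 0.094). Ppara was at 6.29, 3.58, 5.46 and 5.06 CPM in Old-OSK and overlapped with Old-Control through the same library (log2 fold change -0.57, SE 0.26, adjusted p = 0.175). Cpt1a was at 208, 187, 227 and 251 CPM in Old-OSK and at 278, 214 and 334 CPM in Old-Control (-0.34, SE 0.15, adjusted p = 0.164). Without Old-Control replicate 2, all 3 passed along with Ppargc1a: the log2 fold change was -0.85 for Acadvl (adjusted p = 0.0065), -0.87 for Ppara (adjusted p = 0.0261), -0.51 for Cpt1a (adjusted p = 0.0326) and -0.78 for Ppargc1a. In that fit 17.9% of all genes were called, 11.6% lower, against 0.728% with all libraries. Of the 7 fits without 1 library, this was the only one that called Acadvl, Ppara or Cpt1a.

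Acadm ran the other way, at 148, 139, 118 and 92.1 CPM in Old-OSK and at 71.8, 127 and 88.3 CPM in Old-Control. The difference was not called (log2 fold change 0.38, SE 0.21, edgeR adjusted p = 0.267). Acadl (-0.17, SE 0.18), Hadha (-0.09, SE 0.12) and Hadhb (-0.19, SE 0.11) were not called either (edgeR adjusted p = 0.295 to 0.704). Beside these values, the 10 RPE markers had a median log2 fold change of -0.83 in the same comparison with none called. The 6 skeletal muscle markers had a median of -1.50, also with none called, and sums of 158 to 529 CPM in Old-OSK and 469 to 1148 CPM in Old-Control. Old-Control replicate 2 had the lowest RPE marker sum of the controls (20298 CPM) and the highest rod marker sum of all libraries (19731 CPM). With the RPE marker score as a covariate none of the 8 genes was called, beside 0.0941% of all genes. The log2 fold change was then -0.30 for Ppargc1a (edgeR adjusted p = 0.387), -0.08 for Cpt1a and 0.03 for Acadm.

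Old-OSK was also set against Young, to place the treated libraries on the scale of the young ones. All 8 genes were called: 7 were lower in Old-OSK and Acadm was higher. In this comparison 46.4% of all genes were called, 21.4% lower and 25.1% higher, and 53.4% had an unadjusted p under 0.05. The median log2 fold change was -0.55 over the 8 genes and 0.06 over all genes tested. The groups did not overlap for 6 of the 8, 5 of them below and 1 above, where 28.2% of all genes did not overlap, 15.6% below and 12.6% above.

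The regulators and the carnitine step had the most negative fold changes, though the SEs of neighbours in this order overlap. Ppargc1a had a mean of 74.7 ± 5.52 CPM in Young (SD, n = 7) and 40.6 ± 2.75 CPM in Old-OSK (n = 4), and its log2 fold change was -0.88 (SE 0.12, edgeR adjusted p = 5.9e-05). Cpt1a went from 360.1 ± 37.6 to 218 ± 27.2 CPM (-0.72, SE 0.13, adjusted p = 0.000411). Ppara was at 6.65 to 9.85 CPM in Young and 3.58 to 6.29 CPM in Old-OSK (-0.73, SE 0.22, adjusted p = 0.013). Ppargc1a and Cpt1a kept their calls in all 11 fits without 1 library, and Ppara in 10 of 11.

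Of the dehydrogenases, Acadvl fell from 141 ± 22.3 to 91.6 ± 9.39 CPM (log2 fold change -0.62, SE 0.16, edgeR adjusted p = 0.00596) and Acadl from 202 ± 28.3 to 144 ± 25.7 CPM (-0.49, SE 0.15, adjusted p = 0.0144). Acadm rose from 82.4 ± 6.74 to 124 ± 24.98 CPM (0.59, SE 0.17, adjusted p = 0.00934), a level 51% higher. Its lowest Old-OSK library, replicate 4 at 92.1 CPM, lay just above the highest Young library at 90.0 CPM. Acadl libraries overlapped between the groups, with 163 to 243 CPM in Young and 124 to 179 CPM in Old-OSK, and its call was lost without Old-OSK replicate 2 (-0.42, adjusted p = 0.0558). The ratio of Acadm to Acadvl counts within a library, which does not depend on library scaling, ran from 0.442 to 0.801 in Young (median 0.598) and from 0.922 to 1.75 in Old-OSK (median 1.42). It was 0.536 to 1.23 in Old and 0.399 to 1.43 in Old-Control, and the highest value of each lay inside the Old-OSK range.

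The trifunctional protein genes had the smallest fold changes of the 8. Hadha was at 243 to 308 CPM in Young and 241, 232, 221 and 215 CPM in Old-OSK (log2 fold change -0.28, SE 0.10, edgeR adjusted p = 0.0291), with no overlap. Hadhb was at 135 to 178 CPM in Young and 145, 130, 119 and 121 CPM in Old-OSK, with overlap (-0.24, SE 0.09, adjusted p = 0.0429). These calls were close to the threshold: Hadha passed in 8 and Hadhb in 4 of the 11 refits without 1 library, with the highest adjusted p of 0.0562 for Hadha without Old-OSK replicate 2 and 0.1 for Hadhb without Old-OSK replicate 3.

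Markers of the cell types moved in the same comparison. Of the 10 RPE markers, 9 were called lower in Old-OSK than in Young (median log2 fold change -1.26). Of the 10 rod markers, 9 were called higher (median 2.16), with a summed level of 451 to 3373 CPM in Young and 3123 to 16709 CPM in Old-OSK. Of the 8 macrophage and microglia markers, 7 were called higher and 1 lower (median 2.63), but their summed level was not higher, at 415 to 521 CPM in Old-OSK and 449 to 656 CPM in Young. With the RPE marker score as a covariate, 1 of the 8 genes was called, Ppargc1a (-0.51, edgeR adjusted p = 0.0367), beside 6.47% of all genes. In that fit Cpt1a was at -0.35 (adjusted p = 0.158), and the other 6 lay between -0.00096 (Acadm) and 0.078 (Acadl). With the mean log2 level of the rod markers as a covariate, 2 of the 8 were called, beside 28.5% of all genes. These were Ppargc1a (-0.78, edgeR adjusted p = 0.0016) and Cpt1a (-0.60, adjusted p = 0.00881), while Acadm was at 0.57 and no longer called (adjusted p = 0.0542). RPE marker level and the OSK group cannot be told apart here, since all Old-OSK libraries had lower RPE marker sums than all Young ones.

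The levels also moved with the RPE markers over all 18 libraries. The log2 level of Acadvl rose with the RPE marker score (Pearson r = 0.924, Spearman rho = 0.858, n = 18; permutation p = 1e-05 for r, the smallest that 100000 resamples can give; adjusted p = 4e-05 over the 8 genes), and r was 0.883 without the 2 libraries farthest from the median of the x axis. With the mean of each group subtracted, r was 0.874 (permutation p = 0.0003). Acadm fell with the score (r = -0.857, rho = -0.855, and -0.737 within groups, adjusted permutation p = 0.0101). Over the other 6 genes r ran from 0.758 for Hadhb to 0.898 for Ppara, and within groups from 0.593 to 0.819. Within groups, Hadha, Hadhb and Ppargc1a did not pass the adjustment (adjusted permutation p = 0.0877, 0.0535 and 0.0535). These relations were chosen after the data were seen, and the libraries share their scaling. How many of all genes would follow the score as closely was not computed. The values within groups were not computed again without Old replicate 4 or Old-Control replicate 2.

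**Figure D3:**
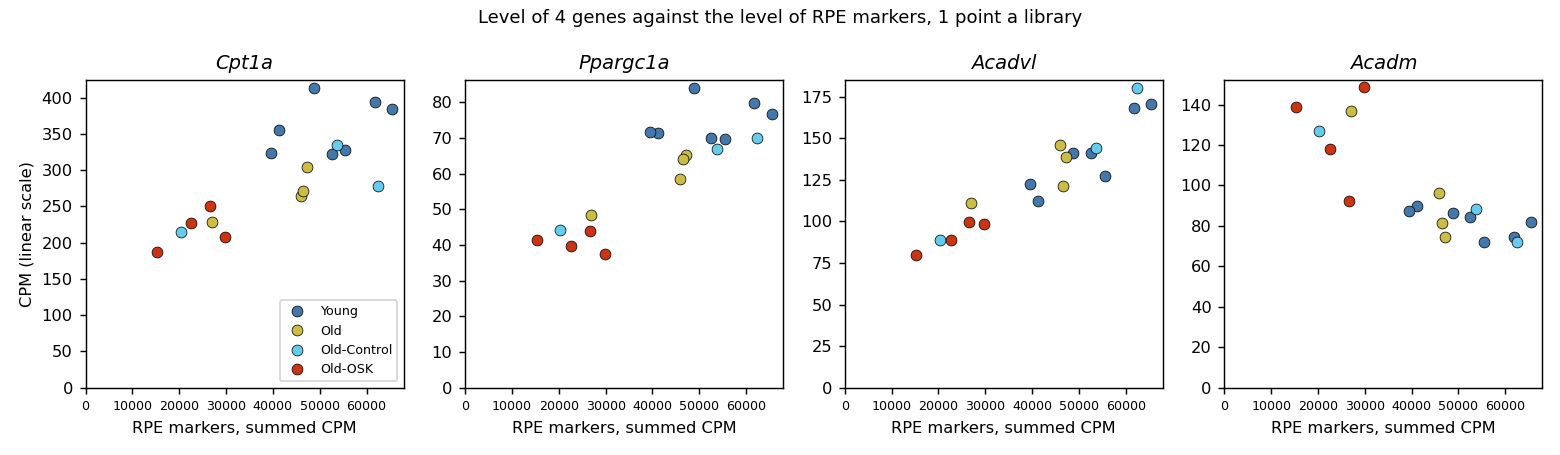
Level of Cpt1a, Ppargc1a, Acadvl and Acadm against the summed level of the 10 RPE markers, both in CPM on linear axes from 0, with 1 point for each of the 18 libraries, coloured by group. The 6 libraries with the lowest RPE marker sums, 15302 to 29778 CPM, are the 4 Old-OSK libraries, Old replicate 4 and Old-Control replicate 2. In them Acadm is at 92.1 to 148 CPM and Ppargc1a at 37.4 to 48.4 CPM.

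In Young, the group with at least 3 libraries of each kind, the letter M was compared within the group. For Cpt1a, Acadl, Hadha, Hadhb and Ppargc1a the 3 libraries with M were all above the 4 without it. For Cpt1a the means were 397 and 332 CPM. The exact permutation test gave p = 0.0571 for each of these 5 genes, the smallest that 3 libraries against 4 allow, so none could pass. Restricted to libraries without M, Old-OSK against Young had 5 of the 8 genes called, 4 lower and Acadm higher. In that fit 36% of all genes were called, 19.3% higher and 16.8% lower. Acadl, Hadha and Hadhb were not called (edgeR adjusted p = 0.119, 0.119 and 0.33). Old-OSK against Old-Control then rested on 1 control library, assumed to vary like the other groups, so only log2 fold changes are given. They were -1.02 for Acadvl and -0.83 for Ppargc1a.

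The 8 genes were compared with one another across the 18 libraries. All 28 pairs passed as Pearson correlations of log2 level after adjustment, and the 7 pairs with Acadm were negative. The share of pairs of all genes that would pass was not computed, so the count says nothing particular about these genes. With group means subtracted, 13 of the 28 passed, with Old replicate 4 and Old-Control replicate 2 included throughout. Hadha and Hadhb, which encode subunits of 1 complex, had r = 0.862 and rho = 0.926 (n = 18; permutation p = 1e-05, the smallest possible; adjusted p = 4.67e-05), r = 0.89 without the 2 farthest libraries and r = 0.855 within groups. Such values were not particular to this pair. Acadl and Acadvl had r = 0.865 and 0.882 within groups, and Acadl and Hadha r = 0.874 and 0.785 within groups. Cpt1a and Ppargc1a had r = 0.933 and rho = 0.936 (adjusted permutation p = 4.67e-05) and 0.821 within groups (adjusted permutation p = 0.00734). Ppara followed Cpt1a less closely, with r = 0.719 and rho = 0.639 (adjusted permutation p = 0.00105), and did not pass within groups (r = 0.54, permutation p = 0.115). Ppara and Ppargc1a had r = 0.804 and rho = 0.709 (adjusted permutation p = 0.000204), and within groups r = 0.658 (permutation p = 0.0636).

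The genes most alike in pattern over the 18 libraries were sought among 10226 genes whose mean log2 CPM was 3 or more. For the mean standardised level of the 5 mitochondrial enzymes Acadm, Acadl, Acadvl, Hadha and Hadhb they were Larp1b (r = 0.929), Gtf3c6 (0.926), Sptlc1 (0.925), Selenos (0.917) and Snx2 (0.916). Acadm entered this mean with the same sign as the others, though it correlated negatively with each of them, so the mean does not describe Acadm. Tbc1d9b and Lhfpl2 were most like Cpt1a (r = 0.974 for both). Abat (0.974) and Sesn3 (0.97) were most like Ppargc1a, and Tlcd4 (0.926) and Timp3 (0.925) were most like Ppara. These values describe these libraries, which also differ in RPE marker level.

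To set the 8 genes in their pathway, 84 further genes in 6 lists were examined, of which 81 passed the low-count filter (Cpt1b, Fgf21 and Cidec did not). With age 2 were called, against 9.56% of all genes. Cd36, a fatty acid transporter and scavenger receptor, was at 2.90 ± 0.896 CPM in Young and 6.88 ± 2.00 CPM in Old, and rose by 1.25 on the log2 scale (SE 0.24; edgeR adjusted p = 0.00652). Prkaa2, a catalytic subunit of the energy sensor AMPK, fell from 60.8 ± 4.86 to 45.0 ± 7.12 CPM (-0.43, SE 0.12, adjusted p = 0.0392). Of 11 refits without 1 library, Cd36 passed in all and Prkaa2 in 4, with the highest adjusted p for Prkaa2 (0.18) without Old replicate 4. In the same comparison 6 of the 8 macrophage and microglia markers, cells that also express Cd36, were called higher (median log2 fold change 1.96), and the part of these cells in the value of Cd36 was not tested. No gene of the other lists was called, among them Acad11 (-0.44, adjusted p = 0.114), Hsd17b4 (-0.21, adjusted p = 0.0963) and Txnip (1.03, adjusted p = 0.0589). All 15 other genes of mitochondrial beta-oxidation had negative fold changes with age, with a median of -0.17, and none was called. Over all genes the median was -0.0044 and 49.3% were positive, and the RPE markers had a median of -0.31. With the RPE marker score as a covariate Acad10 was above 0, at 0.15 (edgeR adjusted p = 0.554). In that fit Acad11 was at -0.20, Etfdh at -0.13 and Acad9 at -0.04, none of them called. The cause of the shared direction was not tested.

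Vector without OSK against no vector gave no call in any list. The gene with the lowest p of each list was Slc22a5, Acad9, Acat1, Acox2, Rxrg or Ucp2, with edgeR adjusted p of 0.9 to 0.921 and log2 fold changes from -0.32 for Slc22a5 to 0.96 for Acox2.

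With OSK against the control vector, none of the 81 genes was called, beside 0.728% of all genes. Of the 81, 28 had an unadjusted p under 0.05, against 26.3% of all genes. The lists differed in their median log2 fold change, from -0.30 for the other mitochondrial beta-oxidation genes and -0.26 for the peroxisomal ones to 0.13 for PPAR target genes outside beta-oxidation, beside -0.03 over all genes. The genes with the lowest p in their lists were Prkaa2 (-0.61, edgeR adjusted p = 0.061), Crat, the carnitine acetyltransferase (-0.34, adjusted p = 0.0631), Abcd2, a peroxisomal fatty acid transporter (-0.86, adjusted p = 0.0723), Aacs, a cytosolic enzyme that uses acetoacetate for lipid synthesis (0.98, adjusted p = 0.0818), Acad10 (-0.70, adjusted p = 0.104) and Ucp2 (0.36, adjusted p = 0.112). With the replicate number as a block in the 6 libraries that share numbers, 3 genes were called, 2 higher and 1 lower, beside 3.02% of all genes. They included Acsl5 (1.46, edgeR adjusted p = 0.0471) and Abcd2 (-1.18, adjusted p = 0.0499). The same libraries without the block gave 4, beside 6.49% of all genes. Without Old-Control replicate 2, 22 of the 81 were called, beside the 17.9% of all genes in that fit.

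**Figure D4:**
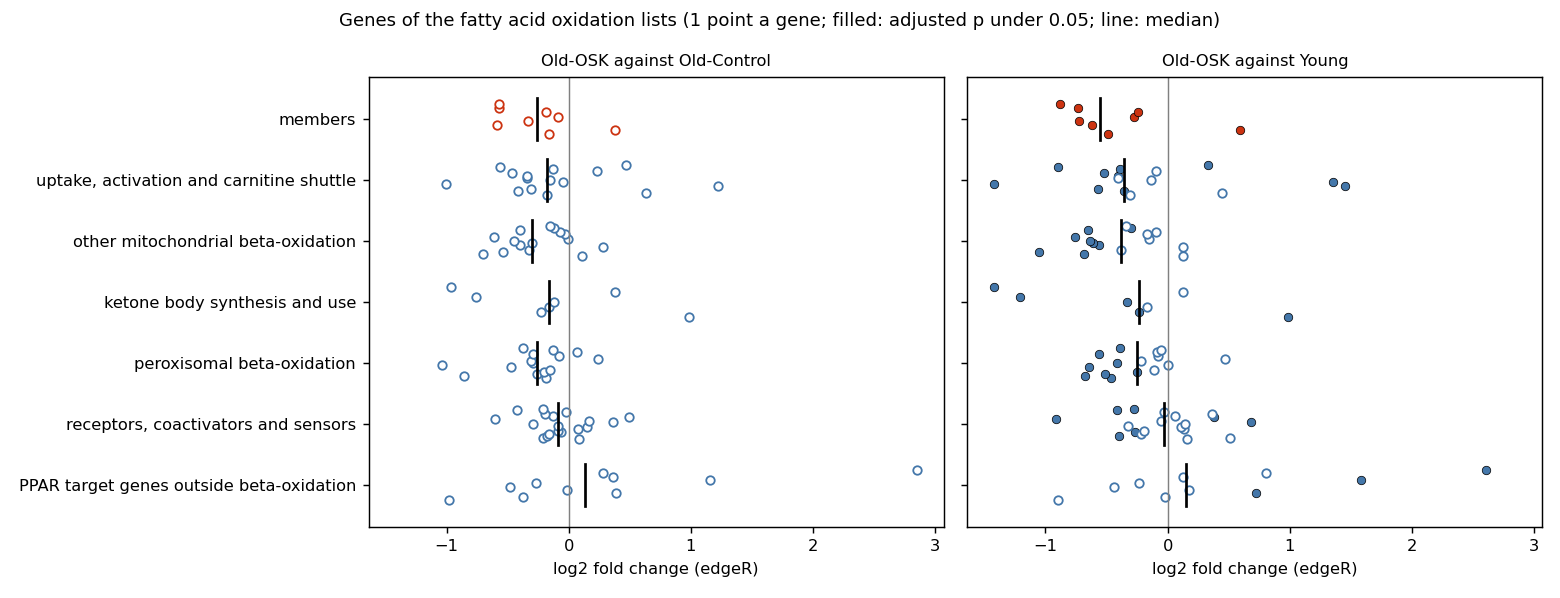
Log2 fold change of each tested gene in the member list and in 6 lists of related genes (1 point a gene; filled, edgeR adjusted p under 0.05; vertical line, median) for Old-OSK against Old-Control on the left and Old-OSK against Young on the right. No point is filled on the left. On the right the filled points of the mitochondrial and peroxisomal lists are all below 0.

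Old-OSK against Young had 41 of the 81 genes called, 32 lower and 9 higher, against 46.4% of all genes (21.4% lower and 25.1% higher). Of the 10 RPE markers 9 fell in the same comparison, as given above, and with the RPE marker score as a covariate 4 of the 81 were called, 3 lower and 1 higher, beside 6.47% of all genes. Slc16a1 was then at -0.14 (edgeR adjusted p = 0.583), Slc27a1 at -0.20 (adjusted p = 0.423) and Acad11 at -0.32 (adjusted p = 0.237), while Prkaa2 (-0.41, adjusted p = 0.0291) and Crat (-0.43, adjusted p = 0.029) were still called. Of the others named next, Etfdh was at -0.19, Ehhadh at -0.17, Gabpa at -0.36, Cd36 at 1.00, Acsl5 at 0.59, Aacs at 0.52 and Txnip at 0.57 in that fit, none of them called (adjusted p = 0.0625 to 0.614). Of the other mitochondrial beta-oxidation genes 8 of 15 were lower and none higher, led by Acad11, an acyl-CoA dehydrogenase (log2 fold change -1.05, SE 0.18, edgeR adjusted p = 0.000409), and Etfdh, which passes electrons from the dehydrogenases to the respiratory chain (-0.30, SE 0.07, adjusted p = 0.0031). Of the peroxisomal genes 8 of 15 were lower and none higher, among them Ehhadh, the peroxisomal bifunctional enzyme (-0.57, SE 0.14, adjusted p = 0.00486).

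Of the genes for ketone bodies 4 of 7 were lower and 1 higher. Slc16a1 went from 1288 ± 254 to 480 ± 156 CPM (-1.42, SE 0.29, edgeR adjusted p = 0.00131). Bdh1, which interconverts acetoacetate and beta-hydroxybutyrate, was not called (-0.17, SE 0.16, adjusted p = 0.415). Aacs rose (0.98, SE 0.23, adjusted p = 0.00276). With OSK against the control vector the log2 fold changes were -0.96 for Slc16a1 (adjusted p = 0.104) and -0.16 for Bdh1 (adjusted p = 0.659), neither of them called, and with age they were -0.44 (adjusted p = 0.309) and -0.13 (adjusted p = 0.622).

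Among uptake, activation and carnitine shuttle genes 7 of 15 were lower and 3 higher. Slc27a1, a fatty acid transport protein, fell (-0.90, SE 0.17, edgeR adjusted p = 0.000902), as did Crat (-0.40, SE 0.07, adjusted p = 0.000411). Cd36 (1.36, SE 0.24, adjusted p = 0.000536) and Acsl5, an acyl-CoA synthetase (1.45, SE 0.28, adjusted p = 0.000862), rose. Cd36 was at 6.86 to 8.23 CPM in Old-OSK and 5.98 to 10.8 CPM in Old-Control, and the difference between these groups was -0.04 (SE 0.30).

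Of the receptors, coactivators and sensors 5 of 19 were lower and 2 higher, a share of lower calls near that of all genes (21.4%). Prkaa2 (-0.92, SE 0.13, edgeR adjusted p = 7.99e-05) and Gabpa, the DNA-binding subunit of the factor GABP (-0.39, SE 0.07, adjusted p = 0.000667) fell, beside Ppargc1a. Pprc1, a relative of Ppargc1a in the PGC-1 family, rose (0.68, SE 0.22, adjusted p = 0.0185), as did Rxra, which encodes the partner receptor of PPARalpha (0.38, SE 0.14, adjusted p = 0.0321). Rxra passed in 5 of the 11 refits without 1 library (0.18 to 0.47, adjusted p up to 0.232, the highest without Old-OSK replicate 1). Pprc1 passed in 9, not without Old-OSK replicate 3 or 4 (adjusted p = 0.0558 and 0.0626). With the RPE marker score as a covariate Rxra was at 0.20 (edgeR adjusted p = 0.598) and Pprc1 at 0.31 (adjusted p = 0.59). With the replicate block they were at 0.34 (adjusted p = 0.114) and 0.49 (adjusted p = 0.0709), also not called. The PPAR target genes outside beta-oxidation had 3 of 10 higher and none lower, where 25.1% of all genes were higher. Txnip (1.58, SE 0.33, adjusted p = 0.00149) and Vnn1, a pantetheinase (2.61, SE 0.77, adjusted p = 0.0114) were among them. Vnn1 was at no more than 10.7 CPM in any library and not called without Old-OSK replicate 1 (1.93, adjusted p = 0.0655). With the RPE marker score as a covariate Vnn1 was at 0.58 and not called (edgeR adjusted p = 0.763). Pdk4 and Angptl4, which PPARs induce, were not called (-0.44, SE 0.19, adjusted p = 0.0607, and -0.90, SE 0.46, adjusted p = 0.122). In OSK against the control vector these were at -0.48 (adjusted p = 0.182) and -0.98 (adjusted p = 0.262), and with age at -0.01 (adjusted p = 0.983) and -0.23 (adjusted p = 0.773).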

How the data were processed

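Whole-number gene counts were deposited by the authors. Reads were handled with STAR 2.7.1a and featureCounts 1.6.2, per the submitters' processing notes, which list mouse GRCm38/mm10 and human GRCh38/hg38 without saying which served here. Libraries were SMART-Seq v4 with Nextera XT, per the labels' protocols, a kit that does not mark strand. The counts were fitted with edgeR 4.0.16 in R 4.3.3 (TMM, filterByExpr with a minimum count of 10 and total of 15, 4 group means over 18 libraries, Benjamini-Hochberg over all tested genes). Log2 CPM used a prior count of 2. DESeq2 1.42.0 served as an alternative. Permutation tests used scipy 1.17.1. The edgeR step was tested on simulated data. Exon lengths came from GENCODE M21 and upstream windows from RefSeq.

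The 8 genes and all lists were chosen with earlier results of these data known. All 8 were named. From each pathway list, the called genes of lowest p were named, up to 2 higher and 2 lower, or, where none was called, the gene with the lowest p. Bdh1, Pdk4 and Angptl4 were always named, some genes that the rule names are not reported here, and Acsl5, Abcd2 and Slc16a1 were added to comparisons where the rule did not name them, after their values were seen. In Old-OSK and Old-Control, libraries with the same number deviated together (r = 0.103, 0.421 and 0.339), which is all that the pairing rests on. Between unlike numbers r ran from -0.340 to 0.392, the highest for Old-OSK replicate 1 with Old-Control replicate 3. These values thus do not establish a pairing. Other alternatives were size factors, count filters, marker and letter M covariates, subsets of libraries, and leaving out each library.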

Additional observations from a re-analysis of the deposited data

How the results depend on the processing

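For Old against Young, the number of the 8 genes called was 0 with median-ratio size factors, with no low-count filter, with a mean of at least 50 counts, with the letter M, rod score or RPE score as a covariate, with both libraries that stood apart left out, and among libraries without M. In these settings 2.71% to 8.51% of all genes were called. The number was 0 with the replicate block and 0 in the same libraries unblocked, where 0% and 1.26% of all genes were called. The pathway count was 1 with median-ratio size factors, no filter, the mean filter, M or the rod score as covariate, both libraries left out and no M, 5 with DESeq2, and 0 with or without the replicate block. DESeq2 called 15.4% of all genes in this comparison. For Old-OSK against Old-Control, the 8 genes gave 1 call with the mean filter, 1 with DESeq2 and 6 with both libraries left out. The pathway genes gave 1, 10 and 27, where 1.25%, 11.6% and 23.3% of all genes were called. With the replicate block the pathway genes gave 3, against 4 unblocked, beside 3.02% and 6.49% of all genes. Libraries without M held 1 control library, so no count is given for them. For Old-OSK against Young the 8 genes gave 2 calls with the rod score, 1 with the RPE score, 5 in the numbered libraries unblocked and 5 without M. The pathway genes gave 19, 4, 26 and 34, where 28.5%, 6.47%, 37.5% and 36% of all genes were called. With the replicate block the 8 genes gave 6, beside 38.3% of all genes. Libraries with M alone held 1 Old-OSK library, so no count is given for them. The relations gave 13 of 28 with group means subtracted.

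Leaving out 1 library gave 0 to 1 of the 8 genes (pathway 1 to 5) for Old against Young, 0 to 4 (0 to 22) for Old-OSK against Old-Control, and 4 to 8 (29 to 43) for Old-OSK against Young, the lowest number of the 8 genes without Old-OSK replicate 2. It gave 0 in both for Old-Control against Old. Genes called in Old-OSK against Young changed sign with the RPE score: Acadm -0.00096, Acadl 0.078, Acadvl 0.061, Hadha 0.0027, Hadhb 0.0014, Ppara 0.061, and Acad10 0.11. Angptl4 and Bdh1, not called, were at 0.32 with the RPE score and 0.024 with the replicate block. In libraries with M alone, Aacs was -0.018 and Rxra -0.0303. The cause was not tested, beyond fewer libraries where some were left out. Of 192 alternative values of the 8 genes in Old-OSK against Young, 6 changed sign, all of them just given. Of 160 for Old-OSK against Old-Control, 6 changed sign and 15 passed the threshold that the value itself missed. The counts of the 8 genes were at least 86 in every library. Over all genes tested, leaving out 1 library gave 393 to 2140 calls for Old against Young (1524 with all libraries), 13 to 2881 for Old-OSK against Old-Control (116) and 5892 to 7293 for Old-OSK against Young (7401).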
